A study of Mus musculus with 6 samples.

Results

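The symbols Spata (spermatogenesis associated) and Tex (testis expressed) were given to mouse genes for where their transcripts were found, so genes that share the name need not share a sequence or a function. Some of them act in the sperm head, midpiece or connecting piece, some in early germ cells, and some encode proteins of the endoplasmic reticulum, the ribosome or ubiquitin signalling that many tissues use. The testis a few days after birth holds supporting cells and spermatogonia, and meiotic and haploid germ cells appear later.

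The members were the mRNA probes whose RefSeq accession maps to a symbol made of Spata or Tex and a digit. Spata22, Tex11, Tex12 and Tex15 were not analysed here. This gave 50 genes on 58 probes, 23 of them Spata and 27 Tex genes, of 19053 genes named on the mRNA probes of the array. Another 15 annotated genes with such symbols had no matched probe and were not analysed here (Spata13, Spata25, Spata31d1b, Spata45, Spata48, Spata5l1, Tex13c1, Tex13c3, Tex13d, Tex33, Tex38, Tex44, Tex45, Tex50 and Tex55).

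RNA came from whole testis of male C57/BL6 mice aged 6 days (neonatal) or 8 weeks (adult), and the labels name no treatment or genetic change at either age. Each age had 3 biological replicates, 1 per array, and by the study's methods each replicate stands for more than 1 mouse, with fewer mice in the adult groups than in the neonatal ones, so the spread between arrays is not that between single animals. Spots were read in 1 colour. Neonatal arrays had 75th percentiles of spot signal, after background subtraction, of 2947, 2503 and 1385 for replicates 1 to 3, and adult arrays of 1856, 1425 and 747. Replicates 1 and 2 of both ages share a scan time and replicate 3 of both ages has another, so the scan cannot be told apart from replicate 3.

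Each value below is a normalized log2 signal, the log2 of the signal over the 75th percentile of its array, floored at -7.22, and fold changes, adult over neonatal, come from a limma model in which arrays with the same replicate number form a block. A probe was called where it changed at least 5-fold and its adjusted p (Benjamini-Hochberg, over 24517 tested probes) did not exceed 0.05, and a gene where at least 1 of its probes was called and none in the other direction. Spots that the scanner software marked as outliers did not enter the test, which required 2 replicate pairs with both spots usable. These marks were most frequent on bright spots of replicate 3, where 83.3% of the neonatal and 76.2% of the adult probes above the 75th percentile carried one, beside 13.2% and 8.60% of the probes below it. On the arrays of replicates 1 and 2 they lay on 17.9% to 24.6% of the probes above it. For 14 of the 50 members no probe had 2 usable pairs, which takes a mark on replicate 1 or 2, and their values are given with the marked spots kept. Values listed by replicate for other members also include marked spots, except where unmarked arrays are named. Of the 58 member probes 45 had a mark on at least 1 array. Where a tested probe had a mark, its fold change in the test rests on the other pairs. The number of arrays limits the precision of all values.

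Of the 36 members with a testable probe, 23 were called higher in adult testis, where 13.1% of all tested named genes were. Called lower were 2 members, Tex13b and Tex19.1, beside 13.9% of all tested named genes. With the marked spots kept all 50 members were tested, 36 were called higher and the same pair lower, against 13.3% and 15.7% of all genes. By adjusted p with no fold threshold, 30 members were higher (30.2% of all tested genes) and 3 lower (45.3%), and with marked spots kept the numbers were 45 (30.3%) and 4 (48.8%). At 2-fold and adjusted p, 27 members were higher (23.8% of all tested genes) and 2 lower (36.3%). By the methods' t-test at 5-fold, 22 were higher (12.4%) and 2 lower (11.7%) unadjusted, and 19 (10.3%) and 2 (8.67%) after Benjamini-Hochberg. The median log2 fold change was 6.25 over the 42 tested member probes and -0.40 over the 15121 tested mRNA probes. With rises or falls at their bounds where the lower age was not well above background, these medians were 6.20 and -0.35. A bulk testis does not tell fewer cells of a type from less RNA per cell, and this holds for every change below.

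**Figure D1:**
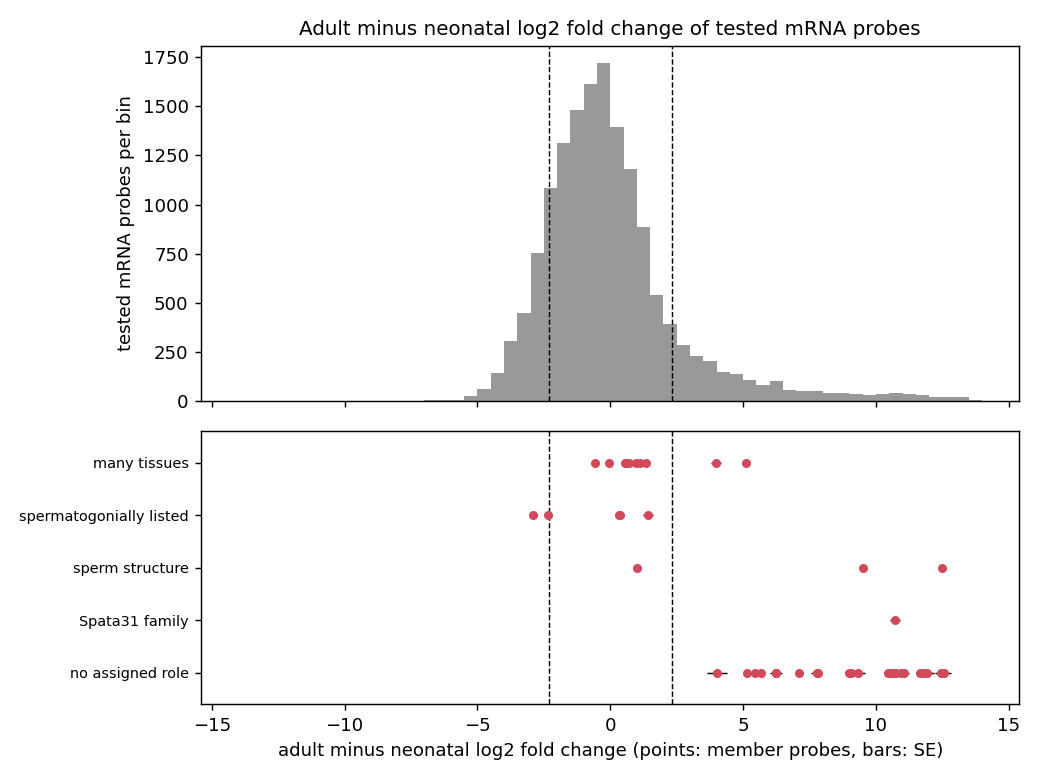
The upper panel counts the 15121 tested mRNA probes by adult minus neonatal log2 fold change in bins, and the lower panel shows the 42 tested member probes (points, with SE bars) by role group, with dashed lines at a 5-fold change. Members without an assigned role lie right of the upper dashed line, and those of the spermatogonially listed group do not.

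All 58 member probes were well above background on all 3 adult arrays, so all 50 members had such a probe, as did 71.8% of all named genes. In neonatal testis 33 of the 50 members (66.0%) had a probe well above background on all 3 arrays, and of all named genes 73.4% did. For 12 members (24.0%) no probe was well above background on any neonatal array while one was on all 3 adult arrays, which held for 3.39% of the 19053 named genes. Within each pair of replicates 36 members were at least 5-fold higher and 2 at least 5-fold lower in the adult array, in the scan of replicates 1 and 2 and in that of replicate 3, with marked spots kept and no test. By the same count 13.3% to 13.7% of the 16313 named genes tested with marked spots kept were higher and 15.5% to 17.1% lower. The medians over the 58 probes in pairs 1 to 3 were 6.60, 6.11 and 5.98 on the log2 scale.

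**Figure D2:**
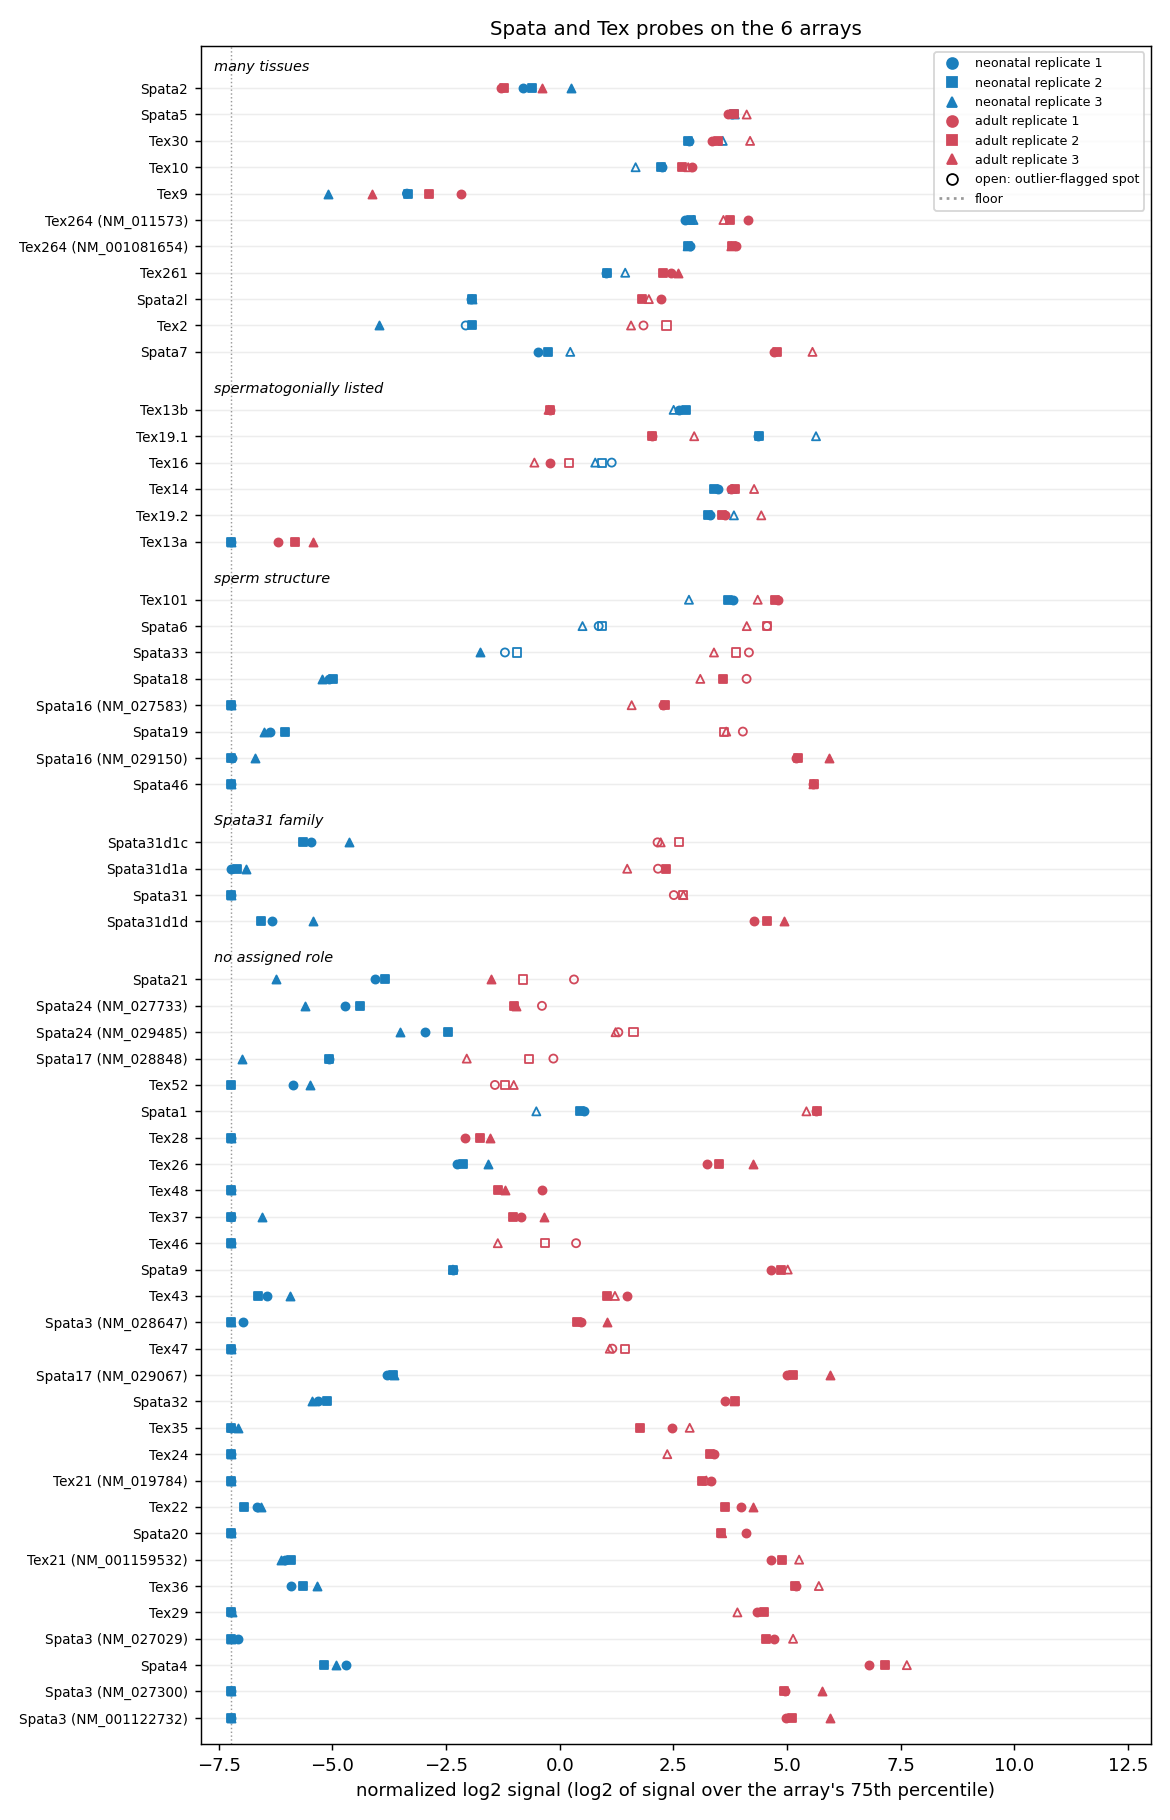
Normalized log2 signal (horizontal axis) of the 58 member probes on the 6 arrays, neonatal in blue and adult in red, by role group and with open symbols for outlier-marked spots. With marked spots counted, the ages overlap for 6 probes, those of Spata2, Spata5, Tex30, Tex9, Tex14 and Tex19.2.

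The members called lower belong to the genes first listed as expressed in spermatogonia, or their families, and none of the 6 members of this group was called higher. Tex13b (NM_031381), an X-linked gene, was measured at 2.63, 2.77 and 2.51 on the neonatal arrays and at -0.22, -0.21 and -0.24 on the adult arrays, in the order of the replicates, with both replicate 3 spots marked. The neonatal arrays all lay far above the adult arrays, and the arrays of an age lay close together. The log2 fold change from replicates 1 and 2 was -2.92 (SE 0.14, adjusted p = 0.000894), lower in 3 of 3 pairs. Without replicate 1 or 2 neither Tex13b nor Tex19.1 could be tested unless marked spots were kept, and with them kept both were called lower without any 1 replicate.

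Tex19.1 (NM_028602) encodes a protein found only in mammals that restrains retrotransposons in germ cells and placenta. Its values were 4.36, 4.39 and 5.64 in neonatal testis and 2.03, 2.03 and 2.96 in adult testis, replicate 3 being marked and brighter at both ages. The ages did not overlap. The log2 fold change from replicates 1 and 2 was -2.34 (SE 0.14, adjusted p = 0.00127), a 5.08-fold fall that lies just past the threshold, and with marked spots kept it was -2.46 (SE 0.13). Tex19.2, its paralogue and neighbour on chromosome 11, gave 3.31, 3.27 and 3.83 in neonatal and 3.64, 3.57 and 4.44 in adult testis. Both replicate 3 spots of Tex19.2 were marked, and its ages overlapped only with these kept. Its log2 fold change from replicates 1 and 2, 0.31 (SE 0.14), did not pass (adjusted p = 0.131). Whether the Tex19.1 and Tex19.2 probes hybridize to each other's transcript was not tested.

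Tex14, which encodes a protein of the bridges that join dividing germ cells, was measured at 3.49, 3.39 and 3.80 in neonatal and 3.76, 3.86 and 4.28 in adult testis. All pairs were higher in the adult array. Both replicate 3 spots were marked, and the ranges overlapped only with these kept. The log2 fold change from replicates 1 and 2, 0.37 (SE 0.15), did not pass (adjusted p = 0.107). With marked spots kept Tex14 was 0.41 higher (adjusted p = 0.0327) and Tex19.2 also 0.41 higher (adjusted p = 0.0405), both far under 5-fold, and the adjusted p over the alternatives ran from 0.0262 to 0.581 for Tex14 and from 0.0208 to 0.771 for Tex19.2. For these genes both differences turned negative under quantile normalization (-0.16 and -0.17) and under normexp background correction (-0.24 and -0.14). The normexp setting, here and below, also includes quantile normalization, so these settings share that step.

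X-linked Tex16 had a single spot without a mark. Kept values were 1.14, 0.94 and 0.78 in neonatal and -0.21, 0.21 and -0.56 in adult testis. The ages did not overlap and all pairs were lower in the adult array, with a log2 fold change of -1.14 (SE 0.18) and an adjusted p of 0.00427, a 2.21-fold fall. X-linked Tex13a was at the floor on all neonatal arrays and dim in adult testis, at -6.20, -5.82 and -5.43. The adult level was at least 2.48-fold higher (adjusted p = 0.00321), the smallest bound of any member probe, and without the floor or with a floor of 5 set before scaling its fitted change passed 5-fold (log2 fold changes 3.35 and 2.83). Tex28, the remaining X-linked member of 4, is in the group without an assigned role and was called higher.

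**Figure D3:**
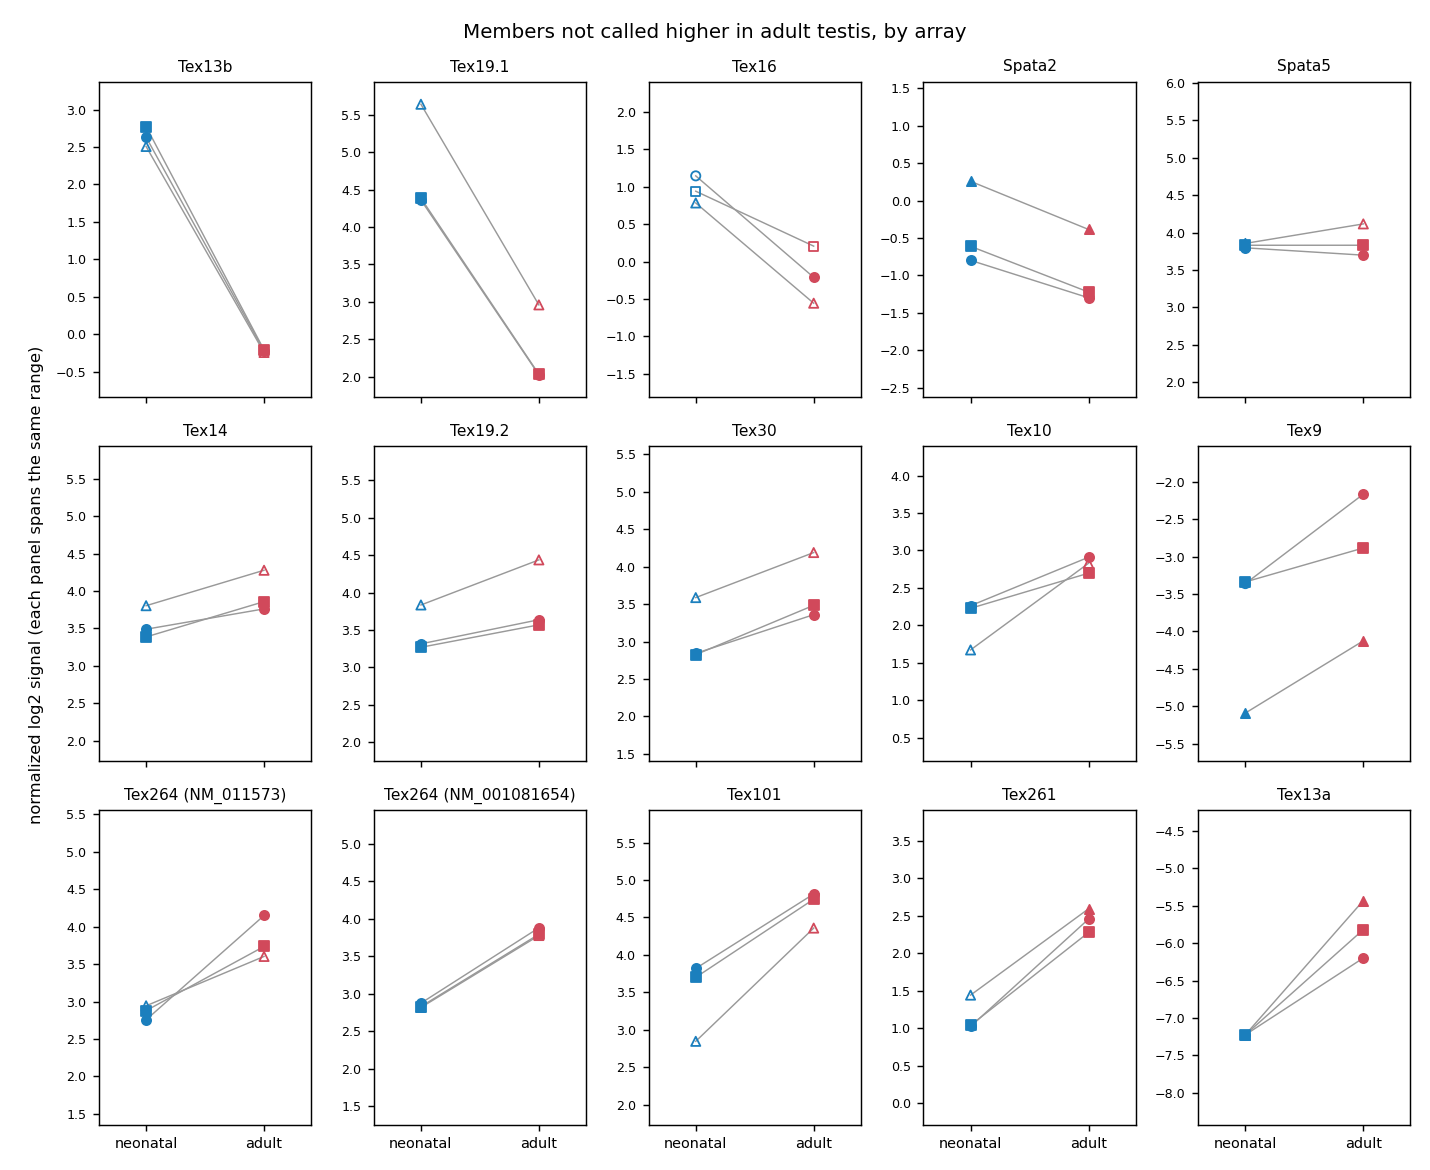
Normalized log2 signal (vertical axis, equal spans) of the 14 members not called higher, neonatal in blue and adult in red, with a line for each replicate pair and open symbols for outlier-marked spots. Tex13b and Tex19.1 fall in every pair by more than the replicates spread, and Spata5, Tex14 and Tex19.2 move little.

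Of the 10 members known from many tissues, 2 were called higher in the test and 7 were tested and not called. Spata2, the adaptor that joins the deubiquitinase CYLD to the linear ubiquitin ligase complex, gave -0.80, -0.61 and 0.26 in neonatal and -1.30, -1.22 and -0.39 in adult testis. Replicate 3 was brighter at both ages and the ages overlapped, but each pair was lower in the adult array, and the log2 fold change was -0.58 with an SE of 0.10 and an adjusted p of 0.00774. Spata2 did not pass without the replicate block (adjusted p = 0.223) or in the fits that leave out 1 array, which have no block either. With the block kept its adjusted p was 0.0506, 0.0731 and 0.0308 without replicate 1, 2 and 3, and over all alternatives it ran from 0.00185 to 0.512. Spata5, an ATPase of ribosome maturation, gave 3.80, 3.83 and 3.85 in neonatal and 3.70, 3.83 and 4.11 in adult testis. Its log2 fold change of -0.05 (SE 0.14, adjusted p = 0.769) was smaller than its error, and it was 0.05 with marked spots kept. This depended on the scaling, since Spata5 was lower by adjusted p under quantile normalization (-0.70, adjusted p = 0.0217) and under normexp (-0.73, adjusted p = 0.00851), over a range of adjusted p from 0.00851 to 0.794.

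The other 5 tested members of this group that were not called were higher in adult testis by adjusted p alone. Tex261, related to a yeast adaptor for export from the endoplasmic reticulum, gave 1.02, 1.04 and 1.44 in neonatal and 2.46, 2.28 and 2.59 in adult testis, which is 1.34 higher (SE 0.15, adjusted p = 0.00509). Tex264, a receptor for autophagy of the endoplasmic reticulum, rose by 1.13 (SE 0.21, adjusted p = 0.0172) and 0.99 (SE 0.14, adjusted p = 0.00895) on its 2 probes. The larger rise, on NM_011573, did not pass without the filter on dim probes (adjusted p = 0.123). Under quantile normalization it lay just past the limit (0.69, adjusted p = 0.0500009). For Tex261 and Tex264 the ages did not overlap, and the change was at most 2.53-fold. Tex30 and Tex10, a subunit of a complex that processes ribosomal RNA, rose by 0.59 (SE 0.14, adjusted p = 0.0351) and 0.56 (SE 0.15, adjusted p = 0.042). Neither passed without the floor, with a floor of 5 before scaling or without the filter on dim probes, nor under quantile normalization, a shift to the median, normexp or the authors' log2 values. Over the last 4 of these the rise of Tex30 was at most 0.33 and that of Tex10 at most 0.50.

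Tex9 was measured at -3.36, -3.34 and -5.09 in neonatal and -2.17, -2.88 and -4.13 in adult testis, with the neonatal replicate 1 spot marked. Replicate 3 was the dimmest array at both ages, so the ages overlapped, while all 3 pairs were higher in the adult array. The log2 fold change from replicates 2 and 3, 0.71 (SE 0.20), had an adjusted p of 0.0498, just under the threshold. Over the alternatives this p ran from 0.0122 to 0.523. The many-tissue members called higher at 5-fold in the test were Spata7, a protein of the photoreceptor cilium, and Spata2l, a relative of Spata2. Spata7 gave -0.48, -0.25 and 0.23 in neonatal and 4.71, 4.79 and 5.56 in adult testis, a rise of 5.11 (SE 0.14, adjusted p = 0.00032). Spata2l rose from -1.96, -1.94 and -1.93 to 2.23, 1.82 and 1.96, by 3.97 (SE 0.18, adjusted p = 0.000798), so Spata2 and Spata2l moved in opposite directions. Tex2, a lipid transfer protein of the endoplasmic reticulum, had all its adult spots marked. With these kept it was higher by 4.58 (SE 0.36, adjusted p = 0.000465).

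Of the 7 members known from sperm or spermatid structure, the sperm surface or sperm mitochondria, 2 could be tested. Spata16, needed for the acrosome, has 2 probes. NM_029150 gave -7.22, -7.22 and -6.69 in neonatal and 5.19, 5.25 and 5.92 in adult testis, with no marked spot, and rose by 12.50 (SE 0.11, adjusted p = 7.62e-05), a size that rests in part on the floor. NM_027583 was not well above background on any neonatal array and rose at least 685-fold (adjusted p = 0.000143), so both probes of Spata16 separated the ages completely.

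Tex101, a surface glycoprotein of germ cells that is needed for sperm to reach the egg, was the exception in this group. It was bright at both ages, at 3.82, 3.70 and 2.84 in neonatal and 4.81, 4.74 and 4.36 in adult testis. The ages did not overlap, and the log2 fold change of 1.02 (SE 0.14, adjusted p = 0.00828) was 2.03-fold, under the threshold. Under quantile normalization and normexp the rise of Tex101 was 0.27 and 0.16 and did not pass (adjusted p = 0.178 and 0.284). The other 5 members of the group had no testable probe and were all called higher with marked spots kept.

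Among these, Spata6, a protein of the sperm connecting piece, had all 6 spots marked, with 0.86, 0.93 and 0.50 in neonatal and 4.56, 4.57 and 4.12 in adult testis. It was already above the 75th percentile of the array in neonatal testis and rose by 3.65 (SE 0.11, adjusted p = 4.38e-05). Spata33, which ties calcineurin to sperm mitochondria, rose by 5.11 (SE 0.15). Spata18 and Spata19, both mitochondrial proteins, rose by 8.70 (SE 0.21) and 10.08 (SE 0.18). Spata46, a protein of the spermatid head, was at the floor on all neonatal arrays and at 5.57, 5.60 and 5.58 in adult testis, at least 6720-fold higher with marked spots kept (adjusted p = 1.1e-05). The adult values of Spata46 varied less between replicates than those of Spata18, which spanned 3.09 to 4.11.

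The Spata31 family, a set of related genes with testis expression, had 4 members, of which Spata31d1d alone was testable. It gave -6.33, -6.57 and -5.43 in neonatal and 4.27, 4.57 and 4.93 in adult testis and rose by 10.70 (SE 0.19, adjusted p = 8.8e-05). With marked spots kept, Spata31d1a, well above background on 1 neonatal array, had a fitted rise of 9.08 (SE 0.26) that rests in part on the floor. Spata31d1c rose by 7.58 (SE 0.30), and Spata31, at the floor on all neonatal arrays, was at least 877-fold higher (adjusted p = 1.1e-05). All 4 were called higher in that fit. Spata31 and Spata31d1c are neighbours on chromosome 13, and how far probes of this family hybridize to each other's transcripts was not tested.

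All 19 testable members of the 23 without an assigned role were called higher. By measured change on all 6 arrays with no marked spot, these included Tex22, which rose from -6.65, -6.95 and -6.58 to 3.98, 3.64 and 4.26, by 10.69 (SE 0.11, adjusted p = 7.62e-05). Spata17, which carries calmodulin-binding motifs, rose on NM_029067 from -3.79, -3.68 and -3.65 to 5.01, 5.12 and 5.95, by 9.06 (SE 0.21, adjusted p = 0.000113). Its other probe, NM_028848, had all adult spots marked and was higher by 4.76 (SE 0.17) with these kept, so the probes of Spata17 gave the same direction and different sizes. Tex26 rose by 5.66 (SE 0.12, adjusted p = 9.86e-05) from clearly measured neonatal values of -2.26, -2.14 and -1.58.

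Where no neonatal array was well above background, the change has a lower bound only, the adult mean against the higher of the probe's own signal and the lowest signal well above background on each neonatal array. The largest bounds in the test were on probes of Spata3, at least 5698-fold, 5239-fold and 3448-fold (adjusted p = 8.8e-05, 8.8e-05 and 0.000126). Of its 4 probes, the remaining probe had a bound of 217-fold (adjusted p = 0.000126), under those of the genes that follow. The probe with the smallest bound, NM_028647, gave 0.46, 0.39 and 1.03 in adult testis, and the probe with the largest, NM_001122732, 4.98, 5.10 and 5.96. Each Spata3 probe separated the ages. Tex29 followed at 2991-fold, Spata20 at 1971-fold, Tex24 at 1426-fold and Tex21 at 1321-fold, on 2 unmarked adult arrays each. With marked spots kept the bound of Tex21 (1317-fold) was above that of Tex24 (1137-fold). A second probe of Tex21, NM_001159532, was well above background on only 1 neonatal array, so its fitted rise of 10.75 (SE 0.14) is not an exact size.

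The smallest rises called in the test, with marked spots left out, were those of Spata2l, Spata7 and Spata24. Spata24 rose on NM_027733 by 4.01 (SE 0.38, adjusted p = 0.00346), from -4.73, -4.40 and -5.60 to -0.998 and -0.97 on the unmarked adult arrays. This call was lost without the filter on dim probes (adjusted p = 0.074, the highest of a range from 0.000104). Its other probe, NM_029485, was higher by 4.36 (SE 0.17) with marked spots kept. Of the members without a testable probe, Spata21 was higher by 4.05 (SE 0.37) and Tex52 by 4.98 (SE 0.37) with marked spots kept. The size for Tex52 rests in part on the floor. In that fit Tex46 and Tex47, at the floor on all neonatal arrays, were at least 103-fold and 329-fold higher. Both stood apart from their neonatal values on every adult array.

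The remaining 10 members, all called higher, were Spata1, Spata4, Spata9, Spata32, Tex28, Tex35, Tex36, Tex37, Tex43 and Tex48. Tex28, Tex35 and Tex48 were not well above background on any neonatal array and rose at least 40.4-fold, 587-fold and 70.8-fold, and the log2 fold changes of the others ran from 5.16 (Spata1) to 11.92 (Spata4). Spata4 gave -4.69, -5.19 and -4.92 in neonatal and 6.80, 7.15 and 7.64 in adult testis. Spata1 was already near the 75th percentile of the array in neonatal testis, at 0.53, 0.46 and -0.51, and gave 5.64, 5.67 and 5.43 in adult testis.

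Over the groups, 3 of the 16 members known from many tissues or listed for spermatogonia were called higher with marked spots kept, and 33 of the 34 other members were, with Tex101 as the exception, beside 13.3% of all genes. At 5-fold the count of 3 of 16 is thus near the share of all genes. By adjusted p alone in that fit, 8 of 10 many-tissue members were higher and 1 lower. Of the 6 spermatogonially listed members 3 were higher and 3 lower, beside 30.3% and 48.8% of all genes. This split by name and role was described and not tested.

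Markers of the cells of the testis moved between the ages as well. Their summed linear normalized signals add probes whose responses differ, so the gene that adds the most signal to a sum need not be the most abundant transcript. All 6 tested spermatid markers of 8 were called higher, and the sum over the list was 0.496, 0.482 and 0.58 in neonatal and 1147, 1369 and 1578 in adult replicates 1 to 3, with Tnp1 adding the most in neonatal and Prm2 in adult testis. Of 7 tested spermatocyte markers 4 were higher, with sums of 25.5, 22.2 and 31.8 against 197, 208 and 264, led in adult testis by Hspa2 and in neonatal testis by Sycp1 in replicates 1 and 2 and by Ldhc in replicate 3, while Dmc1 fell by 2.06. Of 9 tested spermatogonial markers 4 were lower and Id4 higher, with sums of 115, 123 and 109 against 24.6, 25.2 and 20.8, led by Uchl1 at both ages, Gfra1 not well above background at either age, and Nanos2 and Ret not in adult testis. With marked spots kept 7 spermatogonial markers were called lower and 1 higher.

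Among somatic cells, 2 of 4 tested Sertoli markers were lower, with sums over 9 of 106.7, 114 and 83.7 against 27.8, 22.4 and 20.5, led by Inha at both ages. With marked spots kept 5 Sertoli markers were called lower and none higher. None of 4 tested Leydig markers was called, with sums of 31.7, 34.9 and 30.2 against 74.3, 58.2 and 55.3, led by Hsd3b1 in neonatal and Insl3 in adult testis. Leydig markers went both ways, since Insl3 was called higher with marked spots kept (3.49, SE 0.27), Star and Cyp11a1 rose by 1.34 and 1.16, Hsd3b1 fell by 1.04 and Hsd17b3, with marked spots kept, by 2.04, and Lhcgr did not pass. Endothelial markers (2 of 5 lower) summed to 7.67, 8.78 and 14.9 against 2.14, 1.77 and 3.25, led by Cdh5 at both ages. Peritubular myoid markers (0 of 4 tested called, led by Myh11, Cnn1 not well above background at either age) summed to 21.7, 22.0 and 27.0 against 4.80, 4.35 and 6.56, and macrophage markers (0 of 3, led by Mrc1 in replicates 1 and 2 and by Csf1r in replicate 3 at both ages) to 6.32, 6.03 and 5.21 against 5.32, 5.23 and 5.09. Blood markers summed to 4.66, 5.94 and 2.18 against 2.44, 2.30 and 1.97 and went opposite ways. Hba-a1, not testable, was 13.7-fold lower and called lower with marked spots kept, and Alas2 rose by 1.76 and 1.99 on its 2 probes, under 5-fold. The summed signals of germ cell and somatic markers thus differed between the ages in both directions, and their part in the changes of the Spata and Tex members was not tested.

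Promoter windows of 250 bases before to 50 after the gene start were found for 44 of the 50 members in a RefSeq table on GRCm38.p6. Members called higher with marked spots kept had 37 windows from 31 genes, and members not called higher 14 windows from 13 genes. Windows of the same gene can overlap. The median ratio of observed to expected CpG was 0.204 and 0.715 over these groups of windows and 0.384 over all 32851 windows. The median GC contents were 52.0%, 62.0% and 52.7%. The cyclic AMP response element TGACGTCA, searched on both strands, was in 1, 0 and 588 of these windows (2.70%, 0% and 1.79%). The E-box CACGTG was in 3 (8.11%), 1 (7.14%) and 2349 (7.15%), and AACTG, a core of Myb sites, in 17 (45.9%), 4 (28.6%) and 14718 (44.8%). These shares are descriptions of small groups with no test.

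The windows of Tex13b and Tex19.1, called lower, and of Spata46 and Spata3, the single-window members with the largest fitted rises with marked spots kept, are shown for their CpG content, 5′ to 3′ with each CpG in capitals. The fitted rises of Spata46 and Spata3 rest on the floor, and at its bound of 12.48 Spata3 would come after Spata16, whose window has a CpG ratio of 0.523. Tex13b holds 13 CpG and Tex19.1 16, while Spata46 and Spata3 hold 4 each. Their CpG ratios, in this order, are 0.730, 0.575, 0.370 and 0.166, and that of Spata46 lies near the median of 0.384 over all windows. Some other members do not follow this contrast. Tex16, lower with marked spots kept but under 5-fold, has a CpG ratio of 0, and Tex19.2, not called higher, has 0.130. Among the members called higher with marked spots kept, Spata1 reaches 1.07, Spata33 1.03, Spata17 0.983, Tex2 0.891 and Spata18 0.851. The windows shown were picked after the values were seen.
Tex13b, chrX:140813384-140813683, minus strand: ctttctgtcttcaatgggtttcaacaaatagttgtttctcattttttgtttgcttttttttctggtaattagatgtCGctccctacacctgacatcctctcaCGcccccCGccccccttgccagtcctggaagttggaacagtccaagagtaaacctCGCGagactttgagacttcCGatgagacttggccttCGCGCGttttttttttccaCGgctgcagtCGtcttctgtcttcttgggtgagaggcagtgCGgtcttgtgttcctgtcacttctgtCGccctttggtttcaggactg
Tex19.1, chr11:121145893-121146192, plus strand: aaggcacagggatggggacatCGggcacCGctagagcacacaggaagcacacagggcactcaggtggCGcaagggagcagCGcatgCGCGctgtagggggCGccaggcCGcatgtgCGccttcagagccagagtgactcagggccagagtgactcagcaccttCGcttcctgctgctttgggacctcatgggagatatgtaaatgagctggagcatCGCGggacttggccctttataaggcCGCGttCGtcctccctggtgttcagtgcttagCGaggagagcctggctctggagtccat
Spata46, chr1:170308569-170308868, plus strand: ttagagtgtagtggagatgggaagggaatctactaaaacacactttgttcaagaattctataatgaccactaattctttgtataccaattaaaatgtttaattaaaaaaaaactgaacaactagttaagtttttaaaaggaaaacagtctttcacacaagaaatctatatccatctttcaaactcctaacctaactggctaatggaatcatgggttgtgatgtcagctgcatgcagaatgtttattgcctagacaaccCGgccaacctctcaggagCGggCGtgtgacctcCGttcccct
Spata3, chr1:86021695-86021994, plus strand: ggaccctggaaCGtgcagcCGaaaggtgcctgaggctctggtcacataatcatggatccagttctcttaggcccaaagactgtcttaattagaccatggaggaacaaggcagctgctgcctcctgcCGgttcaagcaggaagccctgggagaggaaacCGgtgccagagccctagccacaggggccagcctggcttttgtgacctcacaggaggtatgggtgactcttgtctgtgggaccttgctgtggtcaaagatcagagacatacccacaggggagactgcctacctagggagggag

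Of the 44 members with a window, Spata7 alone had TGACGTCA in it, in capitals here. At 1.79% of all windows, a single hit does not set the members apart.
Spata7, chr12:98627892-98628191, plus strand: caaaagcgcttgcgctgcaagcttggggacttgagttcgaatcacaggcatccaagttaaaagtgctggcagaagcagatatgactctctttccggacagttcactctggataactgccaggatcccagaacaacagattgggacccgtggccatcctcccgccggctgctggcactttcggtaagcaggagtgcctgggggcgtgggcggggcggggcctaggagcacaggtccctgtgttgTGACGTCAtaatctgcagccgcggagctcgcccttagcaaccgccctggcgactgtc

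The array also carries lncRNAs that the study's genomic context table places at 6 member loci, and since that table lists lncRNAs called in these samples their changes are a description. At Tex2, called higher with marked spots kept, the exonic antisense X99253 rose by 3.94 (SE 0.14) on the log2 scale. At Spata17, the intronic antisense uc007dzu, also named AK005744, rose by 6.16 (SE 0.16). At Spata2l, the exonic antisense uc009nur rose at least 4.45-fold. At these loci the mRNA and the lncRNA changed in the same direction.

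At Tex261 the exonic sense AK170049 gave 0.28, 0.74 and 1.37 in neonatal and -1.30, -2.14 and -0.90 in adult testis, a log2 fold change of -2.24 (SE 0.28), while the Tex261 mRNA probe was 1.34 higher. The intergenic uc008paw next to Spata5, well above background on 1 neonatal array, had a fitted rise of 6.46 (SE 0.22) that rests in part on the floor, where Spata5 itself was not called. The intergenic AK006117 next to Spata18 was at least 179-fold higher, and Spata18 rose as well. Whether an mRNA and a lncRNA probe of 1 locus read a shared transcript was not tested.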

How the data were processed

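Whole testis RNA of both ages was hybridized after Cy3 labelling of cDNA made with an oligo dT primer. The authors deposited scanner output with a spot intensity from Agilent Feature Extraction 10.5.1.1 (submitters' processing notes), from which local background is subtracted and which is not scaled across arrays. In the same files the authors deposited flags for outlier spots and for spots well above background. The table of log2 values that the authors deposited, made with GeneSpring GX per the study's methods, equals, up to a constant per array, the log2 of the signal with values under 5 set to 5 for 99.8% of probes on each array, within 0.001. The methods name quantile normalization, and the scale of these values was taken from this match.

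Spots of a probe were averaged and control spots left out, and no spot was saturated. Signals were scaled to the 75th percentile of the array, then floored at the scaled value of a signal of 5 on the array where this is highest, and put on the log2 scale. The test used limma 3.58.1 in R 4.3.3 on probes that were well above background somewhere among the arrays (lmFit and eBayes, two-sided, prior degrees of freedom 2.07). Tables and figures were made with Python 3.11.15, numpy 2.4.6, pandas 2.3.3 and matplotlib 3.10.9. The fit was checked on simulated data. Symbols came from a RefSeq table on GRCm38.p6, which matched 21905 of 22464 mRNA probes (97.5%) by accession. The arrays correlated with r of 0.964 to 0.995 within an age and 0.651 to 0.682 between ages, over 20700 probes well above background on all arrays. The lowest signal of a spot well above background lay between 6.09 and 24.0 over the arrays and limits the dim probes.

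The pairing was checked over the same probes by correlating deviations from the age means. In the scan shared by replicates 1 and 2, same-numbered arrays gave r of 0.530 and 0.484 and differently numbered arrays 0.590 and 0.522, so arrays of 1 number were no more alike there. Replicate 3 gave 0.816 and cannot be told apart from its scan. Arrays of different scans were all negative, but deviations from the mean of 3 arrays cancel within an age. The signs of these correlations thus follow in part from the centring. The study's methods name a paired t-test, and pairing by replicate number was assumed here.

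Named in the text were all members that were not called higher or had no testable probe, all members of the many-tissue, spermatogonial and sperm structure groups, the 10 largest rises measured on all arrays with no marked spot (4 qualified), the 5 largest bounds, members whose probes differ in call and the 3 smallest called rises, 40 genes in all. The rest are named once by range. Role groups and marker lists came from background knowledge. The members, lists and rules were chosen with earlier results of these data known. Alternatives were other floors, scalings, background correction, filters, blocks, tests and thresholds, and replicates left out. The normexp setting corrected median spot signals for background and was then quantile normalized. Outlier-marked spots kept with no block, or with a replicate left out, or within 1 scan, were added after seeing the data.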

Additional observations from a re-analysis of the deposited data

How the results depend on the processing

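The count of members called higher, 23 in the main setting, was between 19 and 33 under the other floors, scalings, filters, blocks, tests and thresholds. It was 36 with outlier-marked spots kept, and still 36 with these spots kept and no replicate block or without replicate 1, 2 or 3, because all 50 members could then be tested. Without a replicate or a single array it was between 9 and 23, and the count called lower, 2 otherwise and 3 by adjusted p alone, between 0 and 2. In these settings as few as 11 members were tested, since marks are most frequent on replicate 3. Without replicate 1 the calls were 10 higher and 0 lower, without replicate 2 they were 9 and 0, without adult replicate 1 they were 10 and 0, and without adult replicate 2 they were 9 and 0. Without neonatal replicate 1 or 2 they were 20 and 0. The fits without a single array also have no replicate block. The fit with no replicate block on all arrays gave 23 higher and 2 lower, as did the scan as a block. With no block, Spata2 (0.223) and Tex9 (0.263) no longer passed by adjusted p alone. With the scan as a block Spata2 did pass (0.00303). With marked spots kept and no block, Spata2, Tex9, Tex14, Tex19.2 and Tex30 no longer passed by adjusted p alone (0.214, 0.290, 0.138, 0.271 and 0.148).

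The methods' t-test gave 22 higher unadjusted and 19 after Benjamini-Hochberg, and 2 lower in both. The median log2 fold change of the tested member probes, 6.25, was 6.72 without the floor and with a floor of 5 before scaling, 5.81 on the authors' values, 4.96 with normexp and an offset of 50, 6.19 within the scan of replicate 3, and between 6.13 and 9.51 without a replicate or an array and with marked spots left out, and between 6.07 and 6.35 without a replicate and with them kept. Normexp compresses low signals by its offset; for the other moves the cause was not tested.

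The median over all tested mRNA probes was -0.40, -0.64 with quantile normalization, -0.65 with a shift to the median and -0.84 on the authors' values. The share of higher calls among all called genes was 48.5%, and 37.8% on the authors' values. Spata5 turned from -0.05 to 0.0542 with marked spots kept, with or without the block, and to 0.13 and 0.0812 with them kept and without replicate 1 or 2. Tex14 turned to -0.16 with quantile normalization and -0.24 with normexp, and Tex19.2 to -0.17 and -0.14. None of these values passed the test. By adjusted p with no fold threshold, Spata2, Spata5, Tex9, Tex10, Tex14, Tex19.2, Tex30, Tex101 and NM_011573 of Tex264 each changed side under at least 1 alternative, which the 5-fold threshold does not show. Tex13a passed 5-fold without the floor (3.35), with a floor of 5 before scaling (2.83) and on the authors' values (2.57). Of 48 named fold changes, 43 kept their direction and 5-fold call under every alternative floor, scaling, filter, block, prior and set of arrays that tested them. The t-test and the other thresholds were compared by counts alone, and a threshold of 2-fold gave 27 higher and adjusted p alone 30 of 36 tested, beside 23.8% and 30.2% of all tested genes. Signal over background limits the members at the floor in neonatal testis, whose changes are bounds.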
